A study of Mus musculus with 48 samples.

Results

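Carboxylesterases were followed through liver and visceral white adipose tissue (WAT) of C57BL6/J mice that were fed, starting at 8 weeks of age, either a high-fat diet that drew 45% of its calories from fat (HFD) or standard chow, the regular diet (RD). The genes were the rows of the deposited gene table that carry the symbols Ces1b, Ces1c, Ces1d, Ces1e, Ces1f, Ces1g, Ces2a, Ces2c, Ces2e and Ces3a. All 10 were found among 30055 gene symbols. The 16 groups of 3 libraries were HFD females, RD females, HFD males and RD males after 2 or 12 weeks on the diet, in liver and in WAT, 48 libraries in all. Each time on the diet was a cohort of its own, so weeks on the diet, age and cohort cannot be told apart and the times are given side by side. The labels number the animals and say no more of litters or cages, so p-values measure the spread between these libraries.

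Carboxylesterases are serine hydrolases that cut ester, thioester and amide bonds, most of them in the lumen of the endoplasmic reticulum. In liver they clear drugs, prodrugs and pesticides, and several also hydrolyse triacylglycerol or cholesteryl esters and so touch lipid storage and the loading of very-low-density lipoprotein (VLDL). Mice carry many more of these genes than humans do, in families named for the human enzymes CES1, CES2 and CES3. Ces1c is a carboxylesterase that mouse liver secretes into plasma. Ces1d is triacylglycerol hydrolase, an enzyme of hepatocytes and adipocytes, and Ces1f is its close relative triacylglycerol hydrolase 2. Ces1e is egasyn, which holds beta-glucuronidase in the endoplasmic reticulum. Ces1g limits lipid build-up in mouse liver, and Ces2a, Ces2c and Ces2e are enzymes of liver and intestine.

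All 10 genes lie on chromosome 8 (GENCODE M21, GRCm38) in a pair of arrays. The 6 Ces1 genes fill chr8:93056728-93337308 on the minus strand, a span of 280.6 kb. Ces2a, Ces2c, Ces2e and Ces3a lie in chr8:104734003-105058413 on the plus strand, a span of 324.4 kb. Such copies can trade reads when they are counted. Of the distinct 31-base words in the annotated transcripts of Ces2c, 50.1% also occur in another gene, most of them in the pseudogene Ces2d-ps, with which it shares 42.9%. The share was 34.9% for Ces3a, all of it with Ces3b, and 30.2% for Ces2a, with 24.7% in the predicted gene Gm7208. It was 23.9% for Ces1b and 23.3% for Ces1c, whose coding sequences are 88.7% identical. The remaining 5 genes shared between 3.63% for Ces1f and 8.68% for Ces2e. Gm45909 overlaps Ces1d and Gm45724 overlaps Ces3a, and no source used here says whether the counting used strand. The levels of Ces2c, Ces3a, Ces2a, Ces1b and Ces1c are therefore less certain than those of the others.

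Promoters are printed for 5 members on which the results turn: Ces1b and Ces1c, whose levels ran closest together across livers, Ces2c, which had the largest log2 difference between the sexes in liver, on HFD at 2 weeks, Ces2a, which fell on HFD, and Ces2e for comparison with Ces2a. Each runs from 250 bases before to 50 bases after the annotated gene start, 5′ to 3′ on the gene's own strand (RefSeq, GRCm38.p6). RefSeq promoters matched 7 of the 10 members by symbol, and Ces1d, Ces1f and Ces3a had no entry. Capitals mark matches on either strand to the CCAAT box, which reads ATTGG when it lies on the other strand, or to CAAAGT, a core that the liver factor HNF4A binds, which then reads ACTTTG.
Ces1b (chr8:93079968-93080267, minus strand): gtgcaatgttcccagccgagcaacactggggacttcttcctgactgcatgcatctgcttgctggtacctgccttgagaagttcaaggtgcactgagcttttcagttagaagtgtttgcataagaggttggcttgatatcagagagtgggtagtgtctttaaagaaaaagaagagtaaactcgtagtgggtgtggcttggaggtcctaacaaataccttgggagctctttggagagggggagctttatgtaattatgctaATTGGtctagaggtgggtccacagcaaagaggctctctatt
Ces1c (chr8:93131234-93131533, minus strand): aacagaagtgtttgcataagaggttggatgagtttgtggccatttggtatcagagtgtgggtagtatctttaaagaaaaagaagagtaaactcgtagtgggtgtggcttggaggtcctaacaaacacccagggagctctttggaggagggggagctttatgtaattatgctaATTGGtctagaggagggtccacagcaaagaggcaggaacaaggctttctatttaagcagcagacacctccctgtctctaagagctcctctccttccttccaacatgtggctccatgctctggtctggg
Ces2a (chr8:104733753-104734052, plus strand): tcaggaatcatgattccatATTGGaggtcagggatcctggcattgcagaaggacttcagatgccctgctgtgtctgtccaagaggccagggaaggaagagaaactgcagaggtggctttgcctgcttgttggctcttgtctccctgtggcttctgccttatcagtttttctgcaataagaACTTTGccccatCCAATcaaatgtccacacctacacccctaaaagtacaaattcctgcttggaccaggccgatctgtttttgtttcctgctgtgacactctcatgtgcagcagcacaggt
Ces2c (chr8:104846818-104847117, plus strand): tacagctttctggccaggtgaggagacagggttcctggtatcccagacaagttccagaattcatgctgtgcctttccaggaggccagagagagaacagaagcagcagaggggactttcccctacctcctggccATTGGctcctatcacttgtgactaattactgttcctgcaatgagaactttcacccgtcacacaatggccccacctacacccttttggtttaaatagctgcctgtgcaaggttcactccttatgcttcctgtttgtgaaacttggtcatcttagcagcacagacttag
Ces2e (chr8:104926010-104926309, plus strand): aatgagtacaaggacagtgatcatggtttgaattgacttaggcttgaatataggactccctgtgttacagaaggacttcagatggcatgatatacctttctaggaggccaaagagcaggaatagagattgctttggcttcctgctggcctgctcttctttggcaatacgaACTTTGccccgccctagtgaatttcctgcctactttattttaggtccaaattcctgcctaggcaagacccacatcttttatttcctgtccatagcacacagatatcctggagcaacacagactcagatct
The Ces1b and Ces1c promoters aligned over 224 columns with 82.6% identity, and both hold the capitalised ATTGG inside the shared stretch. Its place differs, at 78 bases before the annotated start in Ces1c and at base 10 after it in Ces1b. Ces2a and Ces2c aligned over 304 columns with 65.8% identity, and Ces2a and Ces2e over 314 columns with 58.3%. ACTTTG occurs in Ces2a and Ces2e, at a like place before the start, and in neither Ces1b, Ces1c nor Ces2c. In all 32851 RefSeq promoters of this length, 37.4% held CCAAT, 14.4% CAAAGT, 13.6% TATAAA and 8.3% TTCNNNGAA, the site form of STAT factors. Of the 7 member promoters, 5 held CCAAT, 2 held CAAAGT, 1 held TATAAA (Ces1g) and 0 held TTCNNNGAA. These are letter matches in short windows and say nothing of what binds there.

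Library totals ran from 50.9 M to 80.1 M expected counts in liver (median 69.9 M) and from 44.7 M to 105 M in WAT (median 63.2 M). Expression is given on the counts-per-million scale (CPM), scaled within each tissue by TMM. Of 8 hepatocyte markers all 8 reached 1 CPM in every liver library, and of 8 adipocyte markers all 8 in every WAT library. Markers listed for other tissues were measurable in some libraries. In liver, 7 pancreatic acinar markers summed to 193 and 6592 CPM in RD males 6 and 8 at 2 weeks and to at most 3.49 CPM in the other 22 libraries. The 12 epididymis markers summed to 3623 to 5473 CPM in WAT of the 3 RD males at 12 weeks, to 11740 and 2692 CPM in RD males 6 and 8 at 2 weeks and to 8096 CPM in HFD male 13 at 2 weeks, and they stayed at or below 13.1 CPM in the other WAT libraries. Hepatocyte markers in WAT summed to 37.5 to 1322 CPM with a median of 141 CPM, the highest in HFD female 6 at 12 weeks. Ovary and oviduct markers in WAT had a median sum of 4.73 CPM. They reached 403.5 CPM in an RD female at 12 weeks, 220 CPM in an HFD female and 122 CPM in an HFD male at 2 weeks. On that list Fshr and Cyp19a1 stayed at or below 0.464 CPM in WAT, while Cyp11a1 reached 362, Pax8 113 and Ovgp1 107 CPM. Kidney tubule markers in WAT had a median sum of 9.65 CPM and reached 183 CPM in an HFD male at 2 weeks. That sum was mostly Lrp2, which reached 182 CPM, and the rest of the list reached at most 3.01 CPM each. The name of a list is thus not proof of its tissue. WAT of HFD female 1 at 2 weeks had a summed adipocyte level of 5883 CPM, while the other 23 WAT libraries lay between 15050 and 23480 CPM. The source of these sums and its part in the members' values were not tested.

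Levels differed over a wide range in liver. Per kb of the longest coding transcript, the scale on which genes can be compared, Ces1c was the highest with a median of 1493 CPM per kb over the 24 liver libraries (range 783 to 2475). Ces3a came next with a median of 721 CPM per kb (242 to 1184), and together these carried 50.6% and 24.4% of the sum of the 10 medians. Ces1d had 247 CPM per kb, Ces1f 159, Ces1g 87.2, Ces2a 84.8, Ces2e 63.3, Ces1e 48.04, Ces1b 35.4 and Ces2c 13.9. The ranges of neighbours in this order overlapped at every step, and the order was not the same in every group: in HFD males at 2 weeks the mean of Ces3a was 1088 CPM per kb and that of Ces1c 952 CPM per kb, while in the other 7 groups Ces1c had the higher mean.

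WAT had another makeup. Ces1d stood at a median of 541 CPM per kb (226 to 920) and made up 88.8% of the sum of medians, and Ces1f stood at 64.0 CPM per kb (17.4 to 120) and made up 10.5%. Ces1d lay above Ces1f without overlap over the 24 libraries. The other 8 members had medians between 0.0753 CPM per kb for Ces1b and 1.79 CPM per kb for Ces1c. Ces1d and Ces1f reached 10 CPM in 24 of 24 WAT libraries, Ces1c in 4, Ces1e in 3, Ces3a in 1 and the other 5 in 0. The median levels of both tissues and the share of transcript sequence that each gene has in common with others are plotted together.

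**Figure D1:**
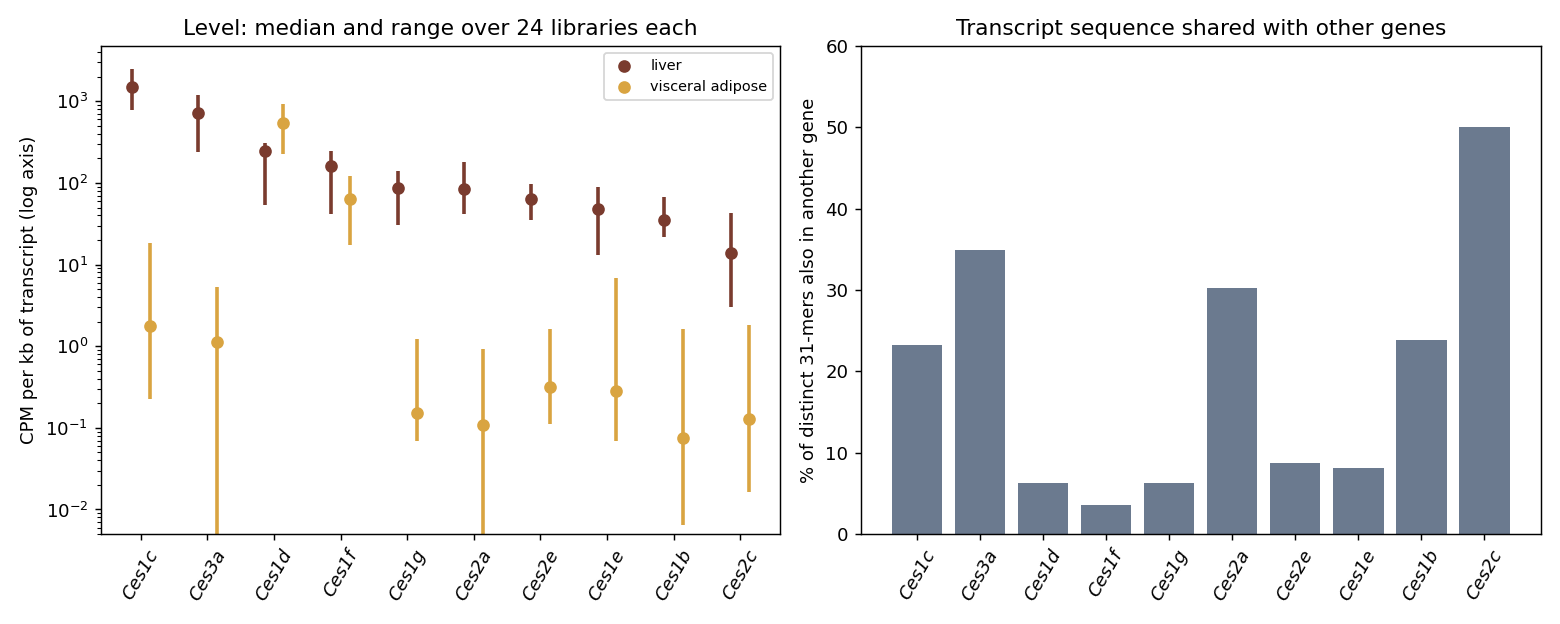
Left, median (point) and range (line) of the 10 carboxylesterases in CPM per kb of transcript on a log axis, over 24 liver libraries and 24 visceral adipose libraries, each tissue scaled on its own, with a lowest value of 0 running off the bottom of the axis. Right, the percentage of each gene's distinct 31-base words that also occur in another gene: Ces2c has the highest share (50.1%) and the lowest liver level.

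Set against WAT in a fit of all 48 libraries, 9 of the 10 members were higher in liver, with edgeR log2 fold changes from 2.61 ± 0.14 (SE) for Ces1f to 10.33 ± 0.42 for Ces3a. Of all 18800 genes tested, 80.4% were called in that comparison, so a call by itself says little about the members. Ces1d was the exception. On the scale of that joint fit it had a median of 729.7 CPM in liver (156 to 892) and 744.5 CPM in WAT (310 to 1269), with a log2 difference of -0.14 ± 0.12 (adjusted p = 0.29). Scaled within each tissue the same libraries had medians of 496 CPM in liver and 1084 CPM in WAT, so the ratio of the tissues depends on how they are scaled. In HFD males at 2 weeks alone Ces1d was lower in liver than in WAT by a log2 fold change of -1.47 (adjusted p = 0.00043), and in the other 7 groups its log2 difference ran from -0.27 to 0.63 with adjusted p from 0.11 to 0.98.

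In liver the family split by sex. Ces3a and Ces2c were lower in females than in males in all 4 comparisons, on HFD and on RD and at 2 and 12 weeks. Ces1c was higher in females in all 4, Ces1g in the 2 at 2 weeks, and Ces1b and Ces1d on HFD at 2 weeks. Ces1e, Ces1f, Ces2a and Ces2e did not pass the test between the sexes in any of the 4. The 8 hepatocyte markers, taken as a sum, moved with sex too. They summed to 121000 to 139200 CPM in HFD females and 73570 to 80620 CPM in HFD males at 2 weeks, to 116300 to 136300 CPM in RD females and 87840 to 108200 CPM in RD males at 2 weeks, and to 107400 to 127100 CPM in HFD females and 100200 to 103300 CPM in HFD males at 12 weeks. Females lay above males without overlap in these 3 comparisons. RD females (114300 to 140600 CPM) and RD males (98900 to 118900 CPM) at 12 weeks overlapped. The sum includes albumin (Alb), which on HFD at 2 weeks had 91818 to 102220 CPM in females and 37871 to 48808 CPM in males. Not every marker followed the sum: Apoa2 on HFD at 12 weeks had 4038 to 4267 CPM in females and 4396 to 5229 CPM in males. The part of the shift in the sum in the sex differences was not tested, and Ces3a and Ces2c differed in the other direction.

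Ces3a had 994, 918 and 1242 CPM in HFD females at 2 weeks, against 2192, 2064 and 2422 CPM in HFD males (log2 fold change, female over male, -1.08 ± 0.18, adjusted p = 3e-04). On RD at 2 weeks it had 593, 761 and 812 CPM in females, against 1848, 2281 and 2050 CPM in males (-1.51 ± 0.18, adjusted p = 6.7e-06). No female library reached the lowest male library on either diet. At 12 weeks its means were 593 ± 165 CPM in HFD females and 1896 ± 210 CPM in HFD males (SD, n = 3 each; -1.68 ± 0.18, adjusted p = 1.6e-06). They were 564 ± 43.6 CPM in RD females and 1855 ± 192 CPM in RD males (-1.72 ± 0.18, adjusted p = 1.2e-06). In bulk tissue fewer cells of a type and less RNA per cell cannot be told apart. Ces3b, the copy that shares reads with Ces3a, was also lower in females on HFD, with log2 fold changes of -1.26 ± 0.26 at 2 weeks and -0.95 ± 0.26 at 12 weeks (adjusted p = 0.0027 and 0.014).

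Ces2c, an enzyme of liver and intestine, had 5.92, 7.95 and 11.7 CPM in HFD females at 2 weeks, against 54.5, 38.8 and 74.8 CPM in HFD males (-2.72 ± 0.32, adjusted p = 8.3e-06). On RD at 2 weeks it had 19.9, 24.08 and 24.01 CPM in females, against 80.5, 85.3 and 78.8 CPM in males (-1.85 ± 0.31, adjusted p = 0.00054). The sexes did not overlap on either diet. At 12 weeks the means were 11.7 ± 1.04 CPM in HFD females and 46.3 ± 20.2 CPM in HFD males (-1.99 ± 0.31, adjusted p = 0.00017), and 16.3 ± 6.79 CPM in RD females and 49.8 ± 6.40 CPM in RD males (-1.61 ± 0.31, adjusted p = 0.0021). The pseudogene Ces2d-ps, which shares most with it, was at or below 0.60 CPM in all liver libraries.

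Ces1c, the plasma carboxylesterase, differed in the other direction. It had 3230, 3130 and 4523 CPM in HFD females at 2 weeks, against 1952, 1430 and 1840 CPM in HFD males (1.06 ± 0.16, adjusted p = 0.00011). RD females at 2 weeks had 3565, 3412 and 3617 CPM, against 1719, 2377 and 2309 CPM in RD males (0.73 ± 0.15, adjusted p = 0.0049). Every female library lay above every male library at both times. At 12 weeks the means were 3420 ± 119 CPM in HFD females and 2097 ± 244 CPM in HFD males (0.71 ± 0.15, adjusted p = 0.0036), and 3265 ± 197 CPM in RD females and 2205 ± 24.9 CPM in RD males (0.57 ± 0.15, adjusted p = 0.025). The last of these calls was lost when any 1 of its 6 libraries was left out (log2 fold change of Ces1c 0.52 to 0.61, adjusted p = 0.053 to 0.090), and without the filter on low counts (adjusted p = 0.073).

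Ces1g, which limits lipid build-up in mouse liver, had 182, 176 and 237 CPM in HFD females at 2 weeks, against 112, 72.9 and 104 CPM in HFD males (1.04 ± 0.18, adjusted p = 0.00073). In RD livers at 2 weeks it had 258, 259 and 331 CPM in females, against 121, 208 and 161 CPM in males (0.79 ± 0.18, adjusted p = 0.0091). Neither pair of groups overlapped, but the RD call was lost without RD female 4 (0.66, adjusted p = 0.059) or RD male 6 (0.62, adjusted p = 0.053). At 12 weeks the log2 fold changes of Ces1g were 0.46 ± 0.18 on HFD and 0.52 ± 0.18 on RD (adjusted p = 0.091 and 0.080).

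Ces1b had 77.0, 69.0 and 134 CPM in HFD females at 2 weeks, against 53.6, 43.1 and 45.3 CPM in HFD males (0.98 ± 0.20, adjusted p = 0.0027). Ces1d had 505, 475.5 and 492 CPM in those females, against 343, 107 and 248.8 CPM in those males (1.08 ± 0.31, adjusted p = 0.026). In both genes the lowest female lay above the highest male. The Ces1d call was lost without HFD female 1 or 5 or HFD male 13 or 14 (log2 fold change 0.73 to 1.13, adjusted p = 0.051 to 0.087), with 0.73 without male 13, whose 107 CPM was the lowest. On RD at 2 weeks Ces1d averaged 557 ± 16.5 CPM in females and 505 ± 76.0 CPM in males, a log2 difference of 0.14 ± 0.31 (adjusted p = 0.81).

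Counted by direction, 4 members were higher and 2 lower in HFD females at 2 weeks, where 6.33% of the 15897 genes tested in liver were called higher and 6.06% lower. On RD at 2 weeks 2 were higher and 2 lower, with 5.37% and 4.45% of all genes. At 12 weeks 1 was higher and 2 were lower on each diet, with 9.93% and 7.4% of all genes on HFD and 5.63% and 3.18% on RD. Without RD male 8, the liver with 6592 CPM of pancreatic markers, the same 4 members were called on RD at 2 weeks. Without RD male 6, with 193 CPM, 3 were (Ces1c, Ces2c and Ces3a). A fit of the 6 libraries alone called 8 members on RD at 2 weeks and 7 on RD at 12 weeks, but 3 on HFD at 2 weeks, where Ces1b, Ces1c and Ces1d then had adjusted p of 0.096, 0.067 and 0.18. The shares of all genes above come from the fit of all liver libraries, so these counts have no background beside them. Among the members without a call, Ces1e, Ces1f, Ces2a and Ces2e had log2 fold changes on RD at 12 weeks of -0.86 ± 0.32, -0.70 ± 0.28, -0.72 ± 0.28 and -0.49 ± 0.17 (adjusted p = 0.077 to 0.13).

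**Figure D2:**
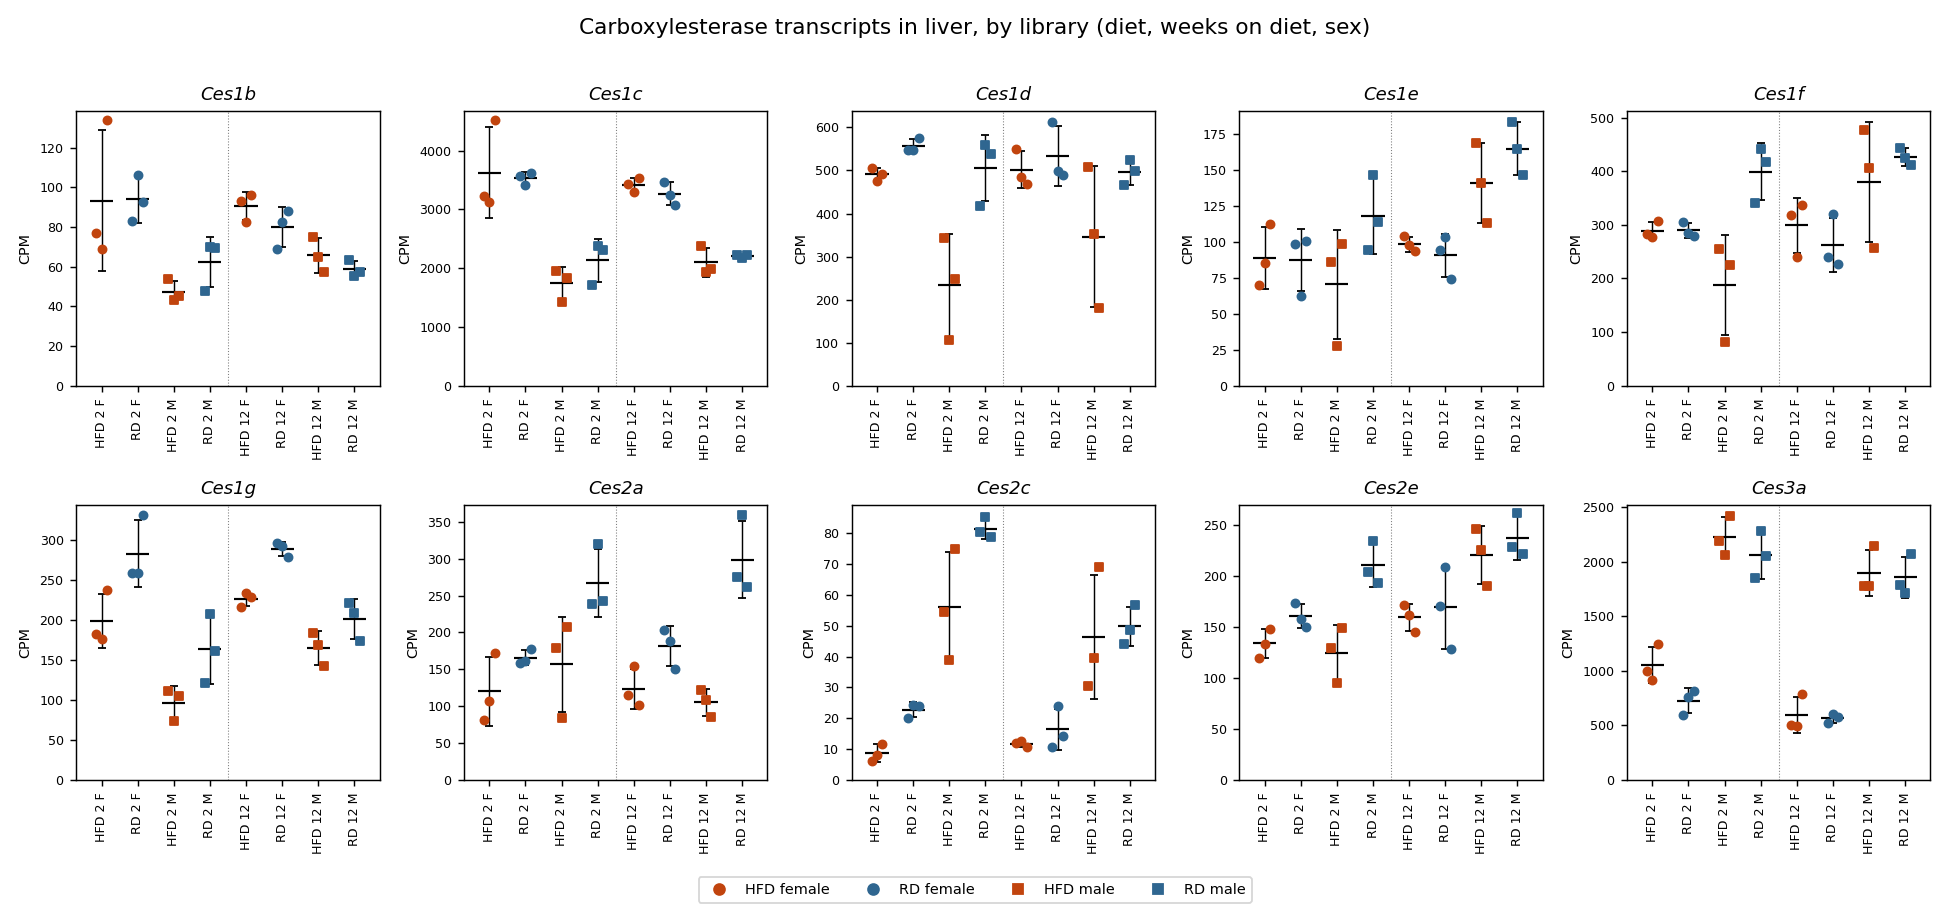
CPM of each carboxylesterase in the 24 liver libraries, by diet, weeks on the diet and sex, with 1 point per library and black bars for the mean and SD of 3. Ces3a and Ces2c are low in females and Ces1c is high in females, Ces2a is lowest as a group in HFD males at 12 weeks (86 to 121 CPM), and Ces1d spreads widely in HFD males.

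On HFD, Ces2a fell in livers of males at 12 weeks. It had 121, 108 and 85.5 CPM in the 3 HFD males, against 275, 359 and 262 CPM in the 3 RD males. The groups did not overlap. HFD over RD gave a log2 fold change of -1.51 ± 0.28, a 2.85-fold lower level (adjusted p = 0.014). It was 1 of 178 genes called, 1.12% of those tested. The direction held in all 6 fits that left out 1 library (-1.36 to -1.66), but the call was lost without HFD male 3 (adjusted p = 0.062) or RD male 3 (adjusted p = 0.067), and in a fit of the 6 libraries alone (adjusted p = 0.14).

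Other marker sums moved in the same livers. Summed macrophage markers were 114 to 192 CPM in HFD males and 223 to 260 CPM in RD males, adipocyte markers 31.96 to 88.2 CPM in HFD males and 21.9 to 29.98 CPM in RD males, and intestinal epithelium markers 157 to 186.5 CPM in HFD males and 128 to 149.6 CPM in RD males, with no overlap in any. Summed hepatocyte markers were 100200 to 103300 CPM in HFD males and 98900 to 118900 CPM in RD males. At most 4 of the 8 adipocyte markers reached 1 CPM in any liver library. Adipoq had at most 0.162 CPM in these HFD males and 0.943 CPM in these RD males. Of the 7 intestinal markers, 3 reached 1 CPM in every liver library, while Vil1, Cdx2, Krt20 and Muc2 stayed below 1 CPM in all 24. The part of the shifts in these sums in the Ces2a difference was not tested.

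HFD females at 12 weeks had 115, 154 and 101 CPM of Ces2a, against 204, 188 and 151 CPM in RD females, groups that overlapped slightly (-0.55 ± 0.28, adjusted p = 1). Ces2a was thus at like levels in HFD females and HFD males at 12 weeks, 123 ± 27.4 and 105 ± 18.1 CPM (female over male 0.23 ± 0.28, adjusted p = 0.61), while RD females and RD males had 181 ± 27.2 and 299 ± 52.6 CPM. The sex by diet interaction of Ces2a was 0.95 ± 0.39 (adjusted p = 0.65, unadjusted p = 0.025), so a different response of the sexes was not shown. None of the other 9 members passed the diet test in males at 12 weeks. Their log2 fold changes ran from -0.52 ± 0.31 for Ces1d to 0.16 ± 0.20 for Ces1b.

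**Figure D3:**
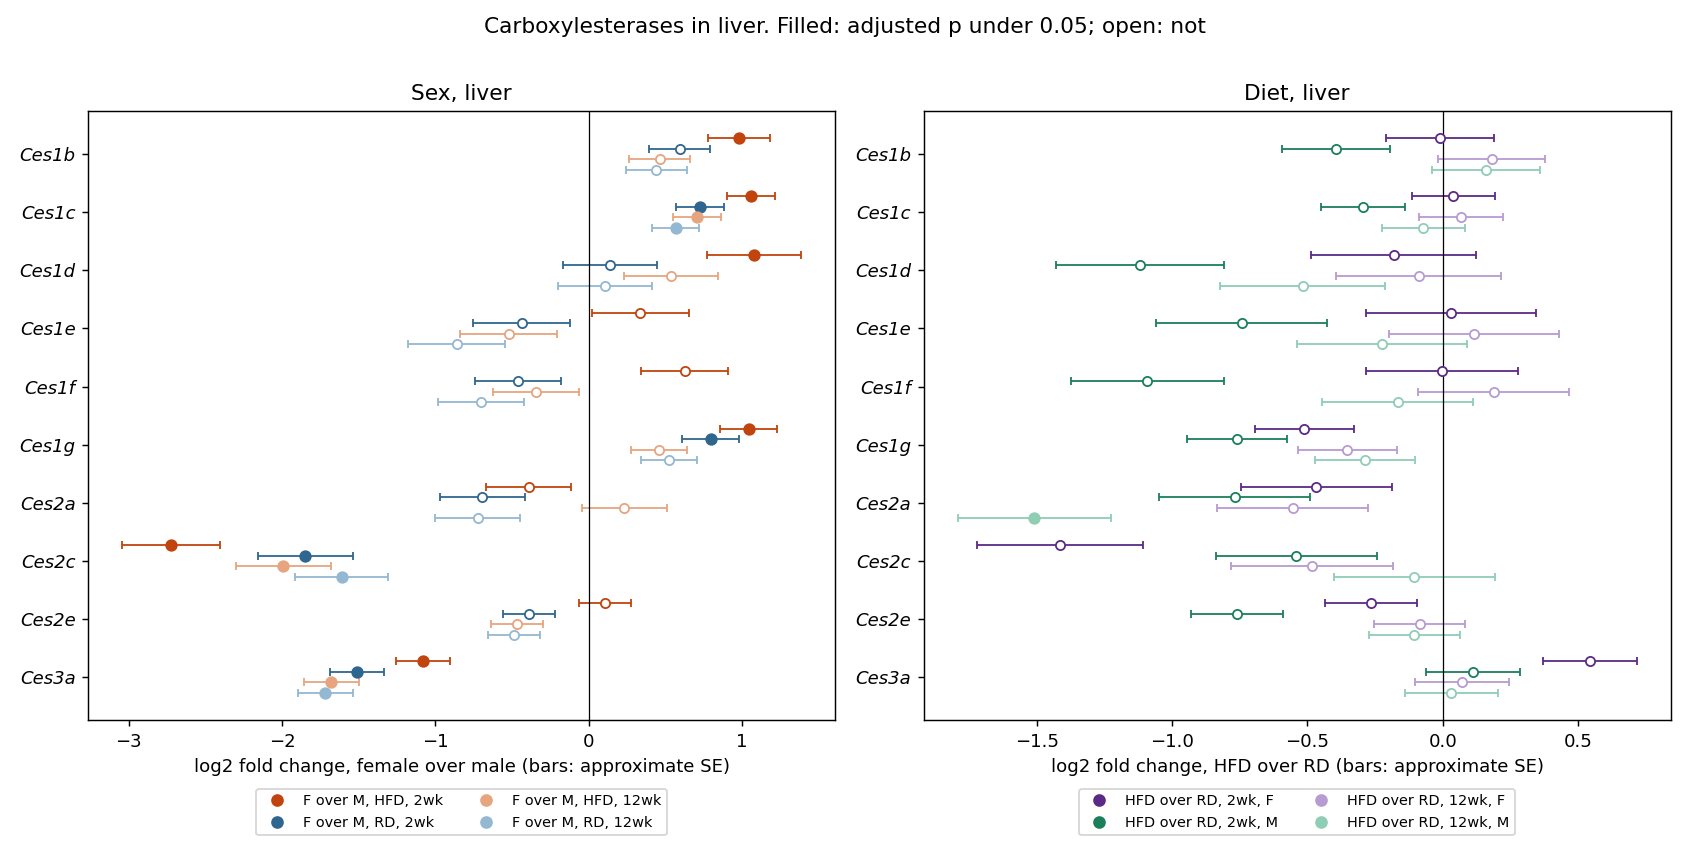
Log2 fold changes in liver, female over male on the left and HFD over RD on the right, with approximate standard errors. Filled points have an adjusted p under 0.05: Ces3a and Ces2c in all 4 sex comparisons on the negative side, Ces1c in all 4 on the positive side, and Ces2a as the sole diet call.

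In male livers at 2 weeks no member passed the edgeR test, but 9 of 10 had a negative log2 fold change for HFD over RD. Ces1d had 343, 107 and 248.8 CPM in HFD males, against 418, 560 and 538 CPM in RD males (-1.12 ± 0.31, adjusted p = 0.12). Ces1f had 256, 81.1 and 226 CPM in HFD males, against 341, 441.5 and 417 CPM in RD males (-1.09 ± 0.28, adjusted p = 0.10). In both genes the groups did not overlap and HFD male 13 was the lowest.

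Ces2e had 129, 94.6 and 149 CPM in HFD males at 2 weeks, against 203, 234 and 193 CPM in RD males (-0.76 ± 0.17, adjusted p = 0.059). Ces1g had 112, 72.9 and 104 CPM in HFD males, against 121, 208 and 161 CPM in RD males (-0.76 ± 0.18, adjusted p = 0.080). With Ces2a and Ces2c, whose log2 fold changes were -0.77 ± 0.28 and -0.54 ± 0.30, 6 of the 10 members were lower in every HFD male than in any RD male. Of all genes tested, 8.25% were lower in that way. The median log2 fold change over the 10 members was -0.75, against 0.01 over all tested genes.

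Of the members, 0 were called by edgeR in 2-week males, where edgeR called 0.34% of all genes. An unadjusted p under 0.05 was found for 6, a count with no like share of all genes beside it. DESeq2 called Ces1d, Ces1f, Ces1g and Ces2e (adjusted p = 0.0035 to 0.020), with no share of all genes called by DESeq2 given beside it. Without HFD male 12 edgeR called Ces1d and Ces1f (-1.52 and -1.39, adjusted p = 0.043 and 0.045), and without RD male 6 Ces1g (-0.94, adjusted p = 0.038). Without RD male 8 it called 0. Without HFD male 13 the log2 fold changes of Ces1d, Ces1f, Ces1g and Ces2e were -0.77, -0.73, -0.59 and -0.60. Albumin, the main hepatocyte transcript, moved too. Alb had 48808, 37871 and 44678 CPM in HFD males, against 59890, 74944 and 73686 CPM in RD males. The 8 hepatocyte markers, Alb included, summed to 73570 to 80620 CPM in HFD males, against 87840 to 108200 CPM in RD males. Other markers in the sum overlapped between the diets. Apoa2 had 2575 to 4218 CPM in HFD males and 3206 to 4415 CPM in RD males. Ttr had 2829 to 4325 CPM in HFD males and 4098 to 4915 CPM in RD males. The part of the shift in Alb and in the sum in the members' values was not tested. Ces3a had 2226 ± 181 CPM in HFD males and 2059 ± 216 CPM in RD males (0.11 ± 0.17, adjusted p = 0.90).

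Female livers at 2 weeks had 0 members called by edgeR, where edgeR called 0.252% of all genes. There were 3 at an unadjusted p under 0.05 and 1 called by DESeq2, counts with no like share of all genes beside them. The DESeq2 call was Ces2c (adjusted p = 0.0017). It had 5.92, 7.95 and 11.7 CPM in HFD females, against 19.9, 24.08 and 24.01 CPM in RD females, with no overlap (edgeR -1.42 ± 0.31, adjusted p = 0.059). Ces3a had 994, 918 and 1242 CPM in HFD females, against 593, 761 and 812 CPM in RD females (0.54 ± 0.17, adjusted p = 0.27). Ces1g was the third, at -0.51 ± 0.18 (adjusted p = 0.34). Female livers at 12 weeks had 0 members called by edgeR, 0 at an unadjusted p under 0.05 and 0 by DESeq2, and 0.00629% of all genes (1 gene) were called.

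The sex by diet interaction in liver, the HFD over RD ratio of females over that of males, called 0 members by edgeR and 0 by DESeq2 at each time, and 0% of all genes by edgeR at each. At 2 weeks 2 members had an unadjusted p under 0.05, a count with no like share of all genes beside it. They were Ces1f at 1.09 ± 0.40 and Ces1d at 0.94 ± 0.43 (adjusted p = 0.39 and 0.51). The Ces1f levels of females on the 2 diets overlapped, with 283, 277 and 307 CPM on HFD and 305, 285 and 279 CPM on RD, and all lay above every HFD male and below every RD male. Female over male was 0.62 ± 0.28 on HFD and -0.46 ± 0.28 on RD (adjusted p = 0.16 and 0.31). At 12 weeks Ces2a was the only member with an unadjusted p under 0.05.

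In WAT Ces1f, a lipid hydrolase of the Ces1 family, fell after 12 weeks of HFD in females and in males. It had 72.8, 33.5 and 55.7 CPM in HFD females, against 232, 138 and 182 CPM in RD females (-1.77 ± 0.41, 3.41-fold lower, adjusted p = 0.028). It had 47.3, 37.2 and 43.6 CPM in HFD males, against 92.7, 131 and 62.9 CPM in RD males (-1.16 ± 0.40, adjusted p = 0.040). The diets did not overlap in either sex. The female call was lost without HFD female 6 or 7 or RD female 5 or 8 (log2 fold change -1.51 to -1.78, adjusted p = 0.061 to 0.17). The male call was lost without any 1 of HFD males 2, 3 and 4 or RD males 2 and 3 (-0.87 to -1.23, adjusted p = 0.054 to 0.16), and without the filter on low counts (adjusted p = 0.054).

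Ces1d, triacylglycerol hydrolase and the most abundant member in WAT, was not called by edgeR in either sex. It had 905, 453 and 717 CPM in HFD females, against 1558, 1132 and 1380 CPM in RD females (-0.97 ± 0.34, adjusted p = 0.17). In HFD males it had 711, 469 and 612 CPM, against 1055, 1414 and 823 CPM in RD males (-0.88 ± 0.34, adjusted p = 0.058). Neither sex had an overlap between the diets. DESeq2 called Ces1d in males (adjusted p = 0.028), and so did edgeR with the animal number as a block (-0.86, adjusted p = 0.044).

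Summed adipocyte markers at 12 weeks were 20110 to 22900 CPM in HFD females and 17840 to 20610 CPM in RD females, and 17600 to 21760 CPM in HFD males and 15050 to 23480 CPM in RD males. These sums overlapped between the diets in both sexes, but a single marker could differ. Adipoq had 1714 to 2496 CPM in HFD males and 2534 to 3710 CPM in RD males, without overlap. In females it overlapped, with 2784 to 3545 CPM on HFD and 2731 to 3484 CPM on RD. Summed macrophage markers (6 found) were 1348 to 1785 CPM in HFD females and 821 to 1448 CPM in RD females, and 3037 to 4076 CPM in HFD males and 867 to 1040 CPM in RD males. Ovary and oviduct markers summed to 3.22 to 4.55 CPM in HFD females and 3.74 to 403.5 CPM in RD females. The part of these marker sums in the Ces1f and Ces1d values was not tested. In females 1 member was called, beside 2.08% of the 18325 genes tested in WAT, and in males 2 were, beside 28.2%, so the male count is near the background.

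The other male call was Ces1e, egasyn. It had 0.202, 0.601 and 0.142 CPM in HFD males at 12 weeks, against 5.90, 5.31 and 13.9 CPM in RD males (-4.72 ± 1.62, adjusted p = 0.038). The summed epididymis markers of the same libraries were 7.99, 3.05 and 1.81 CPM in HFD males, against 3623, 3756 and 5473 CPM in RD males, the highest of both measures in RD male 4. At 2 weeks Ces1e had 0.313, 14.2 and 0.283 CPM in HFD males 12, 13 and 14, against 2.75, 0.195 and 7.52 CPM in RD males 6, 7 and 8. The 3 libraries above 1 CPM were the 3 whose epididymis markers summed to 2692 CPM or more. In the RD males at 12 weeks Crisp1 made up most of the sum, and Gpx5 was at most 1.02 CPM. The part of epididymal RNA in the Ces1e difference was not tested. With the animal number as a block Ces1e was no longer called (-4.80, adjusted p = 0.055), and the call was also lost without any of HFD males 2, 3 and 4 or RD males 3 and 4 (-4.14 to -5.57, adjusted p = 0.054 to 0.13) and without the filter on low counts (adjusted p = 0.051).

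Single libraries also carried other members in WAT. Ces1c had 0.770, 33.5 and 11.6 CPM in HFD females at 12 weeks, against 3.73, 2.93 and 0.431 CPM in RD females (2.70 ± 1.26, adjusted p = 0.33). The hepatocyte markers of those libraries summed to 76.8, 1322 and 340 CPM in HFD females and to 160, 123 and 42.9 CPM in RD females, in the same order within each group as Ces1c. RD female 1 at 2 weeks, with a hepatocyte sum of 710 CPM, had 20.3 CPM of Ces1c, while the other RD females there had 0.967 and 0.413 CPM. HFD female 1 at 2 weeks, the library low in adipocyte markers, had 13.7 CPM of Ces1e and 3.54 CPM of Ces2c, the highest Ces2c of the 24 WAT libraries. The part of this other tissue in the members' levels was not tested.

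**Figure D4:**
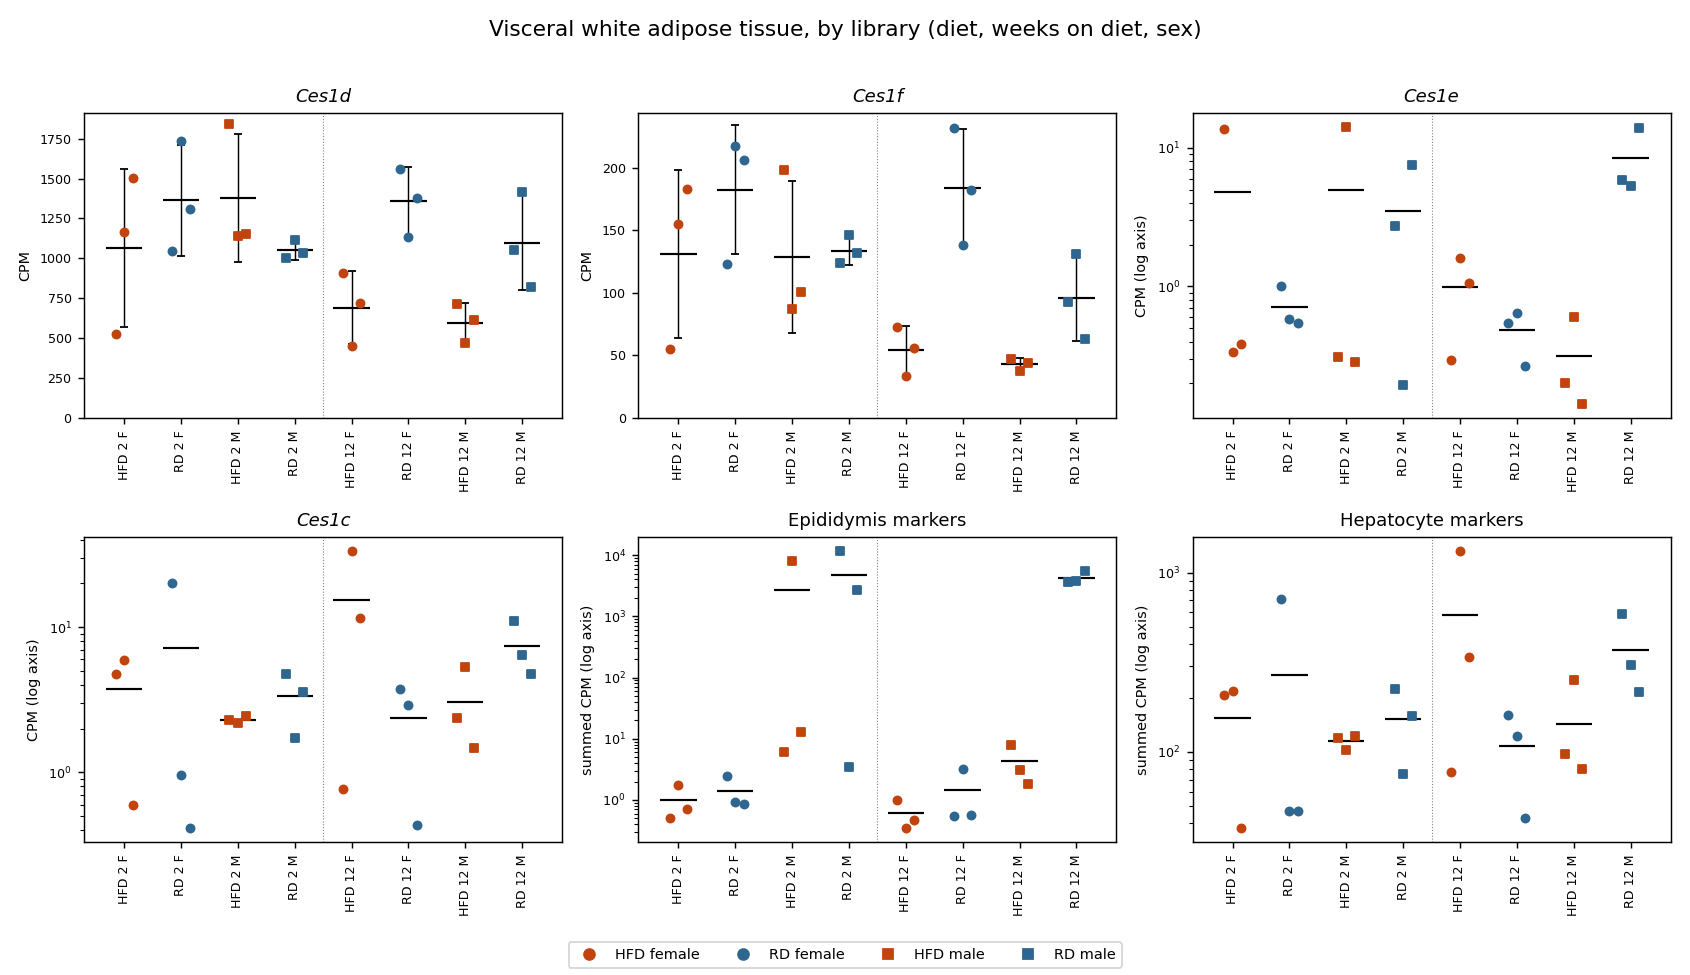
CPM in the 24 visceral white adipose libraries of Ces1d and Ces1f (linear axes, mean and SD of 3) and of Ces1e and Ces1c (log axes, mean), with the summed CPM of 12 epididymis markers and 8 hepatocyte markers in the same libraries. At 12 weeks Ces1d and Ces1f lie lower in HFD than in RD libraries of each sex, and the male libraries with Ces1e above 1 CPM are those whose epididymis markers sum to 2692 CPM or more.

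After 2 weeks of HFD no member was called in WAT. In females 0 of 10 passed by edgeR, beside 0.235% of all genes. There was 1 at an unadjusted p under 0.05 and 0 by DESeq2, counts without a like share. In males 0 passed (0 at an unadjusted p under 0.05, 0 by DESeq2), beside 0% of all genes. Ces1d had 1843, 1143 and 1155 CPM in HFD males at 2 weeks, against 1002, 1114 and 1034 CPM in RD males. All HFD libraries lay above the RD libraries there, with a log2 fold change of 0.39 ± 0.34 (adjusted p = 0.66).

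No member was called between the sexes in WAT by edgeR. The shares of all genes called were 3.8% on HFD and 4.28% on RD at 2 weeks, and 2.85% on HFD and 10.6% on RD at 12 weeks. The members with an unadjusted p under 0.05 numbered 0, 0, 0 and 5 in the same order, and DESeq2 called 0, 0, 0 and 3 (Ces1b, Ces1e and Ces3a). The shares above are edgeR calls at an adjusted p under 0.05, so neither of these counts has a like share beside it. The 5 on RD at 12 weeks were Ces1f, with means of 184 ± 46.7 CPM for females and 95.6 ± 34.1 CPM for males (0.95 ± 0.40, adjusted p = 0.12), and Ces1b, Ces1e, Ces2c and Ces3a, which were lower in females by log2 fold changes of -2.46 to -4.64 (adjusted p = 0.074 to 0.15) at levels of at most 14 CPM. In the same libraries epididymis markers summed to 0.548 to 3.25 CPM in RD females and 3623 to 5473 CPM in RD males, and hepatocyte markers to 42.9 to 160 CPM in RD females and 215 to 588 CPM in RD males, with no overlap in either. Their part in these differences, and in the interaction at 12 weeks, which uses the same RD males, was not tested. The sex by diet interaction in WAT called 0 members by edgeR at each time. At 2 weeks 0 had an unadjusted p under 0.05, 0 were called by DESeq2 and 0% of all genes were called. At 12 weeks edgeR called 1.25% of all genes at an adjusted p under 0.05. There 7 members had an unadjusted p under 0.05 and DESeq2 called Ces1b and Ces1e, counts with no like share of all genes beside them. The interactions of Ces1d and Ces1f at 12 weeks were -0.09 ± 0.47 and -0.61 ± 0.56 (adjusted p = 0.94 and 0.57).

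Over the 24 liver libraries the log2 CPM of Ces1b and Ces1c had a Pearson r of 0.913, Ces1e and Ces1f 0.896, and Ces1e and Ces2e, from the other array, 0.867. Ces1c and Ces3a had an r of -0.807, and Ces2c and Ces3a 0.796. In WAT Ces1d and Ces1f had an r of 0.940 and Ces1c and Ces1g 0.921. These values describe libraries that share sex, diet, cohort and, for Ces1b and Ces1c, sequence, and they carry no test. Among genes outside the list with a mean log2 CPM of at least 3, those most like Ces2a over the 24 livers were Epb4.1l5 (r = 0.81), Mif (0.80), Ethe1 (0.794), Gcat (0.786) and Cnp (0.78). Among those most like Ces1d over the 24 WAT libraries were Sh3glb2 (0.896), Pde1a (0.894), Ivd (0.892) and Fam13a (0.881).

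Of the 10 other carboxylesterase symbols, 7 passed the filter on low counts in liver and 5 in WAT. Ces4a was lower in female livers in all 4 sex comparisons, by log2 fold changes of -2.83 ± 0.54 to -3.98 ± 0.60 (adjusted p = 0.00014 to 0.0021), at levels up to 18.9 CPM. In WAT it was higher in females in all 4, by 1.88 ± 0.47 to 3.36 ± 0.52 (adjusted p = 0.0017 to 0.035), at levels up to 1.27 CPM. Ces2b was lower in female livers in 3 of the 4, at levels up to 8.48 CPM. Ces1a, at or below 0.455 CPM in liver, was higher in females on HFD at 2 weeks (1.76 ± 0.51, adjusted p = 0.026), and Ces2h and Ces2d-ps were not called. Ces2g was higher in female WAT in all 4, with 31.8, 30.8 and 32.1 CPM in HFD females at 12 weeks, against 8.76, 11.3 and 9.9955 CPM in HFD males (1.65 ± 0.26, adjusted p = 0.0014). None of the 7 passed the diet test in liver. In WAT the sole diet call was Ces5a, known as an epididymal esterase, in males at 12 weeks, with 0.0506, 0.103 and 0.0534 CPM on HFD, against 3.26, 4.89 and 0.263 CPM on RD (-5.31 ± 1.80, adjusted p = 0.041).

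Genes that work beside these enzymes were counted from lists chosen for their roles. Of 15 drug-handling and nuclear receptor genes, 2 were lower and 0 higher in HFD male livers at 12 weeks, where Ces2a fell, beside a median log2 fold change of 0.18 over the list and 0.02 over all genes, and 0.918% of all genes called lower and 0.201% higher. These were Cyp3a11, a drug-oxidising P450 (-2.54 ± 0.31, adjusted p = 0.0006), and Cyp2c29 (-0.86 ± 0.19, adjusted p = 0.031). At 2 weeks Cyp3a11 was the sole list member lower in HFD males (-1.78 ± 0.30, adjusted p = 0.012), beside 0.22% of all genes. In females over males 6 of the 15 were higher and 0 lower on HFD at 2 weeks, 3 and 0 on RD at 2 weeks, 4 and 0 on HFD at 12 weeks and 2 and 0 on RD at 12 weeks. All genes were called higher at 6.33%, 5.37%, 9.93% and 5.63% in the same order. Ugt1a1, which glucuronidates bilirubin, was among them each time, and Nr1i3, the receptor CAR, in 3 of the 4.

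Of 18 other lipases and cofactors tested in liver, HFD males at 12 weeks had 1 higher, Lipe, hormone-sensitive lipase (0.80 ± 0.19, adjusted p = 0.038), and 1 lower, Lpl, lipoprotein lipase (-1.52 ± 0.22, adjusted p = 0.002). Of 9 VLDL assembly genes Apoa4 was higher there (1.85 ± 0.34, adjusted p = 0.012). In WAT of HFD males at 12 weeks 4 of 19 lipases and cofactors were higher and 2 lower, led by Lipa, lysosomal acid lipase (2.63 ± 0.23, adjusted p = 1.1e-06). With 13.2% of all genes called higher and 15% lower there, these counts lie near the background. In WAT of HFD females at 12 weeks 0 were higher and 1 was lower, Ddhd2 (-1.11 ± 0.26, adjusted p = 0.029), beside 1.3% and 0.775% of all genes. Of 11 other esterases and epoxide hydrolases Ephx1, microsomal epoxide hydrolase, was higher on HFD at 12 weeks in WAT of females (0.62 ± 0.13, adjusted p = 0.02) and of males (1.21 ± 0.14, adjusted p = 9.4e-06).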

How the data were processed

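The authors deposited a table of expected counts per gene symbol for 48 polyA RNA libraries (stranded kit, 200 ng RNA, per the labels' protocols). Kallisto, edgeR, DESeq2 and the build GRCm38 are listed, with neither role nor version, per the submitters' processing notes. Of the deposited expected counts 0.094% of non-zero values were whole (tolerance 1e-06), and all were rounded before testing. The table pairs symbols, not isoforms, and no source used here says how transcripts were summed.

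Each tissue was fitted on its own with edgeR 4.0.16 (R 4.3.3): TMM scaling, filterByExpr by group, and the robust quasi-likelihood test over 8 groups of 3 libraries, with p-values adjusted by Benjamini-Hochberg over 15897 genes in liver and 18325 in WAT and called at 0.05. Each tissue had 10 comparisons, and all 10 members passed the filter in both. Liver over WAT came from a fit of all 48 libraries (18800 genes). Standard errors are approximate, from the log2 fold change and its F. CPM is TMM-scaled within a tissue, and log2 CPM used a prior count of 2. Correlations and likeness used log2 CPM in R 4.3.3, and sequences were handled in Python 3.11.15. The alternatives were DESeq2 1.42.0, median-of-ratios scaling, no filter, the non-robust test, the libraries of a comparison alone, a block for animal number and each library left out. Animal numbers were shared by HFD and RD males at 12 weeks, by 2 females of each diet at 2 weeks and by 1 at 12 weeks. Each liver shares its title, but for the tissue, with a WAT library; the 48-library fit ignores this, and a block for that title called the same 9 members (correlations of their deviations -0.085 to 0.134). Deviations of same-numbered WAT males at 12 weeks correlated at 0.108, 0.134 and 0.154, so the block is printed there; the labels do not say what the numbers share. No libraries were duplicates (lowest chi-square per degree of freedom 45.5). On simulated counts of the 12-week male diet comparison, 28%, 68%, 94% and 100% of 1.5-, 2-, 4- and 8-fold changes were recovered in liver, and 2%, 48%, 78% and 90% in WAT. The simulation changed 200 genes, all with a mean log2 CPM above 1, and most members had medians below that level in WAT. It called 149 genes in liver and 115 in WAT, against 178 and 5168 in the data. The WAT rates thus do not describe the WAT comparison itself.

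The members and lists were chosen with earlier results of these data known, and all members, with the called or closest-lying of the listed genes, are named. Of the genes most like Ces1d, 1 is not reported here.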

Additional observations from a re-analysis of the deposited data

Results flagged for a closer look

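A set of 4 results was picked out because the compared groups did not overlap in either of 2 settings, differed in opposite directions there, had means of at least 1 CPM, and had no interaction test of that difference. None of these differences was itself tested. Groups without overlap were common among all genes tested. For diet in males at 2 weeks they made up 17.3% in liver and 19.8% in WAT, and in WAT at 12 weeks 43.4%. Between the sexes on RD at 12 weeks they made up 35.4% in liver and 31.9% in WAT. For HFD over RD in males at 2 weeks Ces1d had a log2 fold change of -1.12 in liver and 0.39 in WAT. For females over males on RD at 12 weeks Ces1c had 0.57 in liver and -1.65 in WAT, where hepatocyte markers summed to 42.9 to 160 CPM in RD females and 215 to 588 CPM in RD males; their part in it was not tested. In the same comparison Ces1f had -0.70 in liver and 0.95 in WAT. Ces1d in WAT of males, HFD over RD, had 0.39 at 2 weeks and -0.88 at 12 weeks, in cohorts that differ.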

How the results depend on the processing

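No called member reversed under any alternative run. Fits with 1 library left out kept the call of a called member 92 times and lost it 28 times, and the other alternatives kept it 211 times and lost it 8 times. Counts of members called that moved by over 1.5 times were as follows, without the share of all genes called by the same alternative. DESeq2 called 1 member for diet in female livers at 2 weeks, 4 in male livers at 2 weeks, 5 between the sexes in RD livers at 12 weeks, 4 for diet in male WAT at 12 weeks, 3 between the sexes in RD WAT at 12 weeks and 2 for the WAT interaction at 12 weeks. The 6 libraries alone called 3 members between the sexes in HFD livers at 2 weeks, 8 in RD livers at 2 weeks, 7 in RD livers at 12 weeks, 0 for diet in male livers at 12 weeks, 5 for diet in male WAT at 12 weeks and 3 between the sexes in RD WAT at 12 weeks. Without the low-count filter 0 were called for diet in male WAT at 12 weeks (Ces1f adjusted p = 0.054, Ces1e 0.051). Leaving out 1 library at a time gave, between the sexes in liver, 5 to 6 calls on HFD and 3 to 4 on RD at 2 weeks, and 3 to 4 on HFD and 2 to 3 on RD at 12 weeks. For diet in liver it gave 0 to 1 in females and 0 to 2 in males at 2 weeks, and 0 to 1 in males at 12 weeks. In WAT it gave 0 to 1 for diet in each sex at 12 weeks and between the sexes on RD at 12 weeks, and 0 in the rest. The cause of these shifts was not tested. The replicate block called 2 members in male WAT at 12 weeks (Ces1d and Ces1f) and changed no other call. With 3 libraries a group, 28% of simulated 1.5-fold changes in liver were recovered, so a change of that size would often be missed there. In WAT 2% were recovered, but the simulation called 115 genes and the data 5168. That rate therefore does not carry over to the WAT comparison.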
